A study of Mus musculus with 4 samples.

Results

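Complex I of the respiratory chain oxidises NADH, passes the electrons to ubiquinone and pumps protons across the inner mitochondrial membrane. In brown adipose tissue (BAT), the heat-producing fat, that proton gradient is dissipated by Ucp1. The subunits made from nuclear genes are translated outside the mitochondrial matrix and imported, and they join those encoded by mitochondrial DNA. The genes described here were the protein-coding rows whose name starts with Nduf followed by a, b, c, s or v and a number, together with Ndufab1, and without names ending in -ps or -rs. The rule found 38 of the 17259 listed genes. Of these, 36 encode complex I subunits, and the other two, Ndufa4 and Ndufa4l2, carry the family name but belong to complex IV or are a paralogue. Ndufb1-ps, which the table also lists as protein coding, was left out by its name.

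RNA was sequenced from BAT of WT mice in 2 groups of 2 libraries. The BAT-Mito libraries came from mitochondria isolated from the tissue. The BAT-total libraries are labelled in one field as total and in another as tissue from which mitochondria had been taken, so they hold either the whole tissue or what isolation left behind. The study's description of this experiment names lysates of the total BAT, while the extraction protocol names a remaining tissue fraction. All 4 libraries were made with the same low-input kit from tissue of the same genotype. Ages and the number of pooled animals are not given in the sources used here, and nothing says that the libraries of a group came from separate animals, so their spread may be technical.

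Depth behind the subunits was low. The BAT-Mito libraries held 26288871 and 24910434 reads assigned to genes, of which only 59288 and 67370 belonged to nuclear genes without a match to mitochondrial transcripts. The 38 genes together had 383 reads in BAT-Mito replicate 1 and 920 reads in replicate 2, with a median of 8 and 16 reads per gene. One read was worth 8.32 normalised counts in replicate 1 and 6.90 in replicate 2. In BAT-total the number of reads behind a value is unknown. Every one of the 38 genes passed the minimum mean of 10 normalised counts, and none was at 0 in BAT-total, while 2 were at 0 in BAT-Mito replicate 1.

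The subunits fall into 4 parts of the L-shaped complex. The N module at the tip of the matrix arm takes up NADH, and the Q module below it reduces ubiquinone. The proximal and distal parts of the membrane arm hold the proton pumps, whose cores are the mitochondrially encoded ND proteins. Core subunits are the ones shared with bacteria, and accessory subunits surround them. By this division 10 genes belonged to the N module, 6 to the Q module, 9 to the proximal arm and 11 to the distal arm.

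Upstream sequences are shown for 4 subunits. Ndufb4, Ndufb6 and Ndufs5 held matches to motifs of more than one factor among those searched within the 250 bases before the start. Ndufb2 had the lowest adjusted p of the subunits described below, but it passed the minimum mean only through BAT-total, the group in which it is high. The RefSeq windows ran from 250 bases before to 50 bases after each start in build GRCm38.p6 and were at hand for 32 of the 36 subunits, as 34 windows. Those of the others were not used here. Printed are the 250 bases before the start, 5′ to 3′ on the strand of the gene, in lower case. Capitals mark matches on either strand to the core of the motif of nuclear respiratory factor 1 (TGCGCA, which reads the same on both strands), to the ETS motif read by GABPA (CCGGAAG), to the YY1 motif (AAGATGG) and to the motif of oestrogen-related receptors (AAGGTCA). No motif overlaps another in these lines, and the YY1 motif has no match in them.
Ndufb4, distal arm, chr16:37654369-37654618, minus strand: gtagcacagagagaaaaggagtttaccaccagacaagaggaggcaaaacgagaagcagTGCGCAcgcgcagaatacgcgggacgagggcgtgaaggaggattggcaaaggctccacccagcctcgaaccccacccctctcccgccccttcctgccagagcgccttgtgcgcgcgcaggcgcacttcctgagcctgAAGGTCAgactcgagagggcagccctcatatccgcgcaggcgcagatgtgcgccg
Ndufb6, distal arm, chr4:40279422-40279671, minus strand: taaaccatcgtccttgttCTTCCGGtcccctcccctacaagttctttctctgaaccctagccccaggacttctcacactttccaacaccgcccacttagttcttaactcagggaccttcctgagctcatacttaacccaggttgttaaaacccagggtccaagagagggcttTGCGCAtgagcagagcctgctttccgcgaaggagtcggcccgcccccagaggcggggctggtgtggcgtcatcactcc
Ndufs5, proximal arm, chr4:123718187-123718436, minus strand: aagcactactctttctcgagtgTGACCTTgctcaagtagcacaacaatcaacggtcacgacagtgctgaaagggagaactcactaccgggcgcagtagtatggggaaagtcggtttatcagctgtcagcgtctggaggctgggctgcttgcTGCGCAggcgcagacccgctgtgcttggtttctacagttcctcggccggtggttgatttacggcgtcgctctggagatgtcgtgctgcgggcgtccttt
Ndufb2, distal arm, chr6:39592315-39592564, plus strand: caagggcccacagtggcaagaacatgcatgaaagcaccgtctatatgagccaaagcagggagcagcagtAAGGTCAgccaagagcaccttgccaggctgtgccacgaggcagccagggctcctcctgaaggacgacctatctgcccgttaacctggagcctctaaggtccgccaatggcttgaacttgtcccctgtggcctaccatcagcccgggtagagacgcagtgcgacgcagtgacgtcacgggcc

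Over the whole windows of 300 bases, the core motif of nuclear respiratory factor 1 was found in 11 of the 34 subunit windows (32.4%), in 7.76% of all 32851 windows and in 14.3% of the windows of the other tested protein-coding genes. The YY1 motif was present in 7 of 34 (20.6%), against 6.34% of all windows and 7.34% of those of other tested genes. The ETS motif was present in 4 of 34 (11.8%), against 8.86% and 18.04%, and the receptor motif in 3 of 34 (8.82%), against 4.72% and 3.35%. These are matches of letters only, and no binding was measured in this series. Subunit windows held a median of 20 CG pairs, against 7 over all windows.

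In BAT-total the subunit mRNAs stood among the more abundant ones of the tissue. Per kilobase (kb) of mRNA, with the length of the main transcript of each gene, 37 of the 38 genes lay above the 90th percentile of the 12940 protein-coding genes with a length, and the median percentile of the 38 was 98.3. Among the highest levels were those of Ndufb8, of the distal arm, at 393 ± 58.2 normalised counts per kb (SD, n = 2), and Ndufa6, of the N module, at 388 ± 79.1. Normalised counts of the 36 subunits had nearly the same order in both BAT-total libraries (Spearman's rho 0.97). In 31 of the 37 pairs of neighbours in the order per kb, the ranges over the 2 BAT-total libraries overlapped, so these neighbours did not differ beyond their spread. Neighbours in a sorted list lie close by construction. Ndufa4l2 stood apart at the bottom, with 8.57 ± 1.51 normalised counts per kb and a percentile of 61.5.

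The rank of Ndufab1 depended on the length used. Ndufab1 encodes the acyl carrier protein, which also serves mitochondrial fatty acid synthesis, and its annotated main mRNA is 3479 bases long, of which 468 are coding. Its level was 70.6 ± 5.08 normalised counts per kb of mRNA, position 36 of 38, and position 4 of 38 per kb of coding sequence. Normalised counts of Ndufab1 were 108 and 290 in BAT-Mito and 233 and 258 in BAT-total, so that the groups overlapped. Copies with at least 97% identity over 75 bases lie elsewhere in the genome (Gm4459 and Ndufab1-ps), and reads that aligned to several places were left out of the counting.

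**Figure D1:**
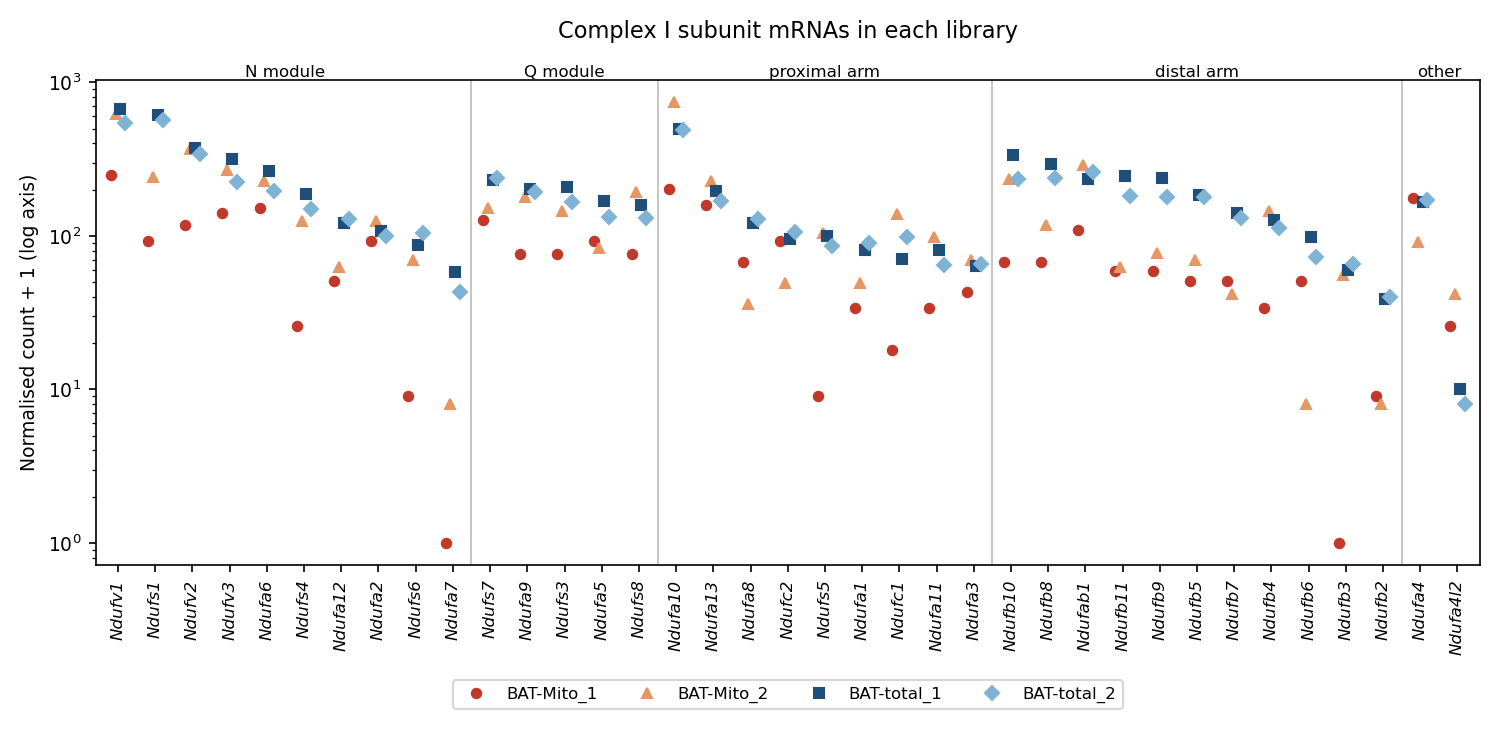
Normalised count plus 1 (log axis) of 37 genes in the 4 libraries, ordered within each part of the complex by normalised count in BAT-total; "other" holds Ndufa4 and Ndufa4l2. The 2 BAT-total libraries (blue) lie close together, while BAT-Mito replicate 1 (red circles) is below BAT-Mito replicate 2 (orange triangles) for 30 of the 37 genes.

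None of the 38 genes passed the test between BAT-Mito and BAT-total. With limma across 8215 genes, 0 were called higher at an adjusted p under 0.05, where 0.803% of all tested genes were, and 0 were called lower, where 4.41% of all tested genes were. Their adjusted p ranged from 0.136 to 0.931. At an unadjusted p under 0.05, 7 were lower (14.9% of all tested genes were) and 1 was higher (3.2% of all). edgeR on reads called 0 of the 38 in either direction, where it called 1.64% of all tested genes higher and 4.02% lower. At an unadjusted p under 0.05 it put 11 of the 38 below BAT-total, and 25.7% of all tested genes. DESeq2 on reads called Ndufb11 lower at an adjusted p of 0.0448 and no member higher, where it called 3.66% of all tested genes lower and 2.35% higher. Both BAT-Mito values lay below both BAT-total values for 20 of 38 genes (52.6%), close to the 52.1% of all tested genes, and above both for 1 gene, where 8.59% of all tested genes were.

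The median log2 fold change of the 38 genes was -0.77, and that of all tested genes was -1.23. The distance of 0.46 between them changed with the treatment of low values. It was 0.31 with genes without BAT-Mito reads set to their bound, 0.12 with edgeR and -0.0046 with a pseudocount of 10. Without BAT-Mito replicate 2 it was -0.24. The fold changes of all tested genes hold many with few or no BAT-Mito reads, and their median moves with such settings.

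As a share of nuclear signal, the subunit mRNAs differed more between the BAT-Mito libraries than between the groups. The 38 genes took 0.647% (95% Wilson interval 0.585 to 0.714%) of the nuclear signal in BAT-Mito replicate 1 and 1.36% (1.28 to 1.46%) in replicate 2. In BAT-total they took 1.08% and 0.966%. The 2 BAT-Mito libraries therefore lay on either side of both BAT-total libraries, with means of 1.00% ± 0.506 and 1.02% ± 0.079 (SD, n = 2 each) and a two-sided exact permutation p of 1, where 0.333 is the smallest this design can give. Nuclear signal here is the sum over genes that are not mitochondrially encoded and have no match to mitochondrial transcripts, and Wilson intervals cover counting error only. The median gap between replicates was 0.93 on the log2 scale for BAT-Mito and 0.21 for BAT-total.

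Marker lists of liver, skeletal muscle, heart and macrophages took larger shares in both BAT-Mito libraries than in both BAT-total libraries, while those of red blood cells overlapped. limma called 0 genes of these 5 lists higher or lower, where 0.803% and 4.41% of all tested genes were. The lowest adjusted p was 0.234 for liver, 0.235 for muscle, 0.050 for heart, 0.441 for red blood cells and 0.271 for macrophages. limma called 1 of 5 endothelial genes lower (20%, where 4.41% of all tested genes were). This gene, Egfl7, had 0 in both BAT-Mito libraries and 75 and 98 in BAT-total (adjusted p 0.0249). Egfl7 passed the filter only through BAT-total, the group in which it is high. Summed over 10 liver genes, the share of nuclear signal was 2.69% and 0.231% in BAT-Mito and 0.0411% and 0.0102% in BAT-total, and all 10 were detected in both BAT-Mito libraries. Alb, the serum protein of the liver, had 4943 and 393 normalised counts in BAT-Mito and 97 and 3 in BAT-total. The 10 skeletal muscle genes took 0.717% and 0.221% against 0.042% and 0.0923%, with Pvalb at 0 in BAT-Mito replicate 2. The 3 heart genes measured took 0.0422% and 0.157% against 0.000678% and 0.000138%, with Myl3 at 0 in BAT-Mito replicate 1. The 5 red blood cell genes took 0.0507% and 0.136% against 0.0401% and 0.086%, the 5 macrophage genes 0.0405% and 0.0472% against 0.0084% and 0.0091%, and the 5 endothelial genes 0.0205% and 0.0015% against 0.119% and 0.126%. Genes of brown adipocytes, including Ucp1, were present in all 4 libraries, and the 9 of them took 0.584% and 1.74% in BAT-Mito and 1.84% and 1.67% in BAT-total. Liver, muscle and heart are known to express complex I, and the part of other tissues in its values was not tested. In bulk RNA, fewer cells of a type and less RNA per cell cannot be told apart.

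**Figure D2:**
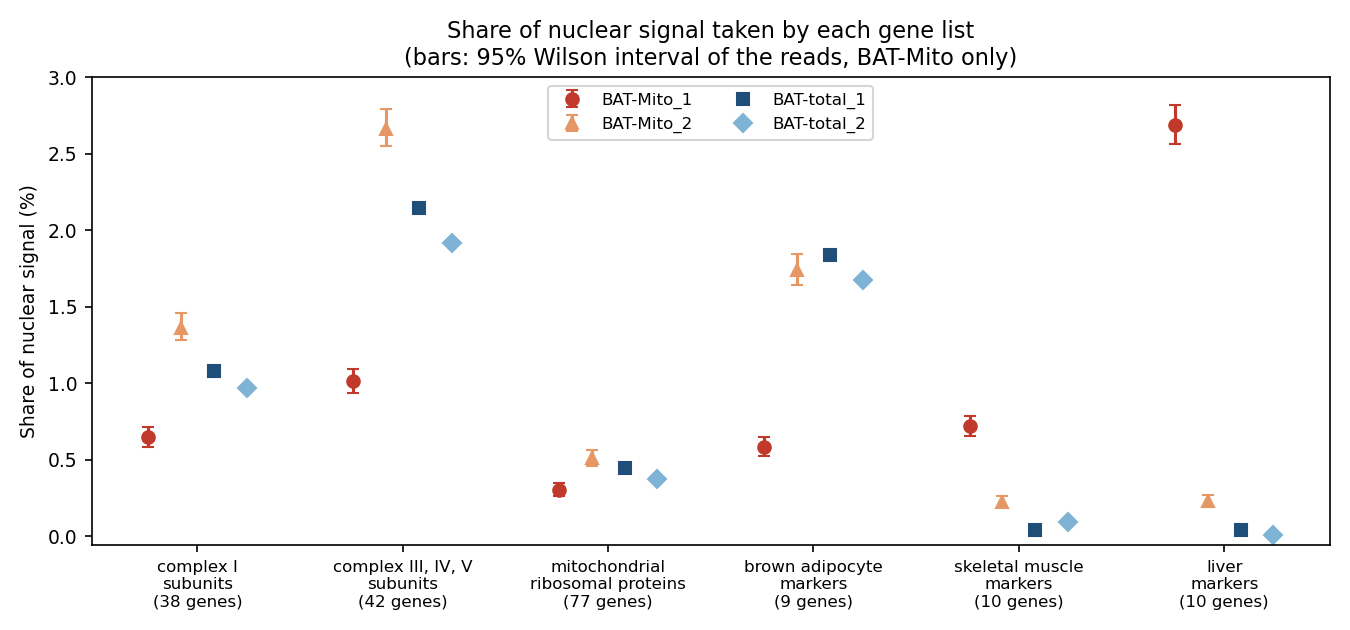
Share of nuclear signal (%) taken by each gene list in the 4 libraries, with 95% Wilson intervals of the reads for BAT-Mito. For complex I the BAT-Mito libraries (0.647% and 1.36%) lie on either side of BAT-total (1.08% and 0.966%), and liver markers reach 2.69% in BAT-Mito replicate 1.

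Other nuclear genes of mitochondrial proteins had the same layout. The 42 subunits of complexes III, IV and V took 1.01% and 2.66% of nuclear signal in BAT-Mito and 2.15% and 1.92% in BAT-total. Among the 39 of them tested, 0 were called higher and 0 lower by limma, 4 had an unadjusted p under 0.05 in either direction (10.3%, where 18.1% of all tested genes had), and their median log2 fold change was -0.99. The 77 mitochondrial ribosomal proteins took 0.302% and 0.508% against 0.447% and 0.376%, with 0 called higher and 4 lower of 73 tested (5.48%, where 4.41% of all tested genes were lower) and a median of -1.13. BAT-Mito replicate 1 was the lowest library and replicate 2 the highest in all 3 lists.

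The mitochondrially encoded subunits of the same complex had a different range. All 7 mt-Nd mRNAs, the membrane-embedded cores of the pump, were called higher in BAT-Mito by limma, where 0.803% of all tested genes were. Their adjusted p was 0.0249, with log2 fold changes between 7.09 and 7.79. edgeR and DESeq2 on reads also called all 7 higher, at adjusted p of at most 2.58e-05 and 7.42e-43. limma kept all 7 calls under the other pseudocounts and filters and under the scalings other than CPM. Their values were 140898 to 3454681 normalised counts in BAT-Mito replicate 1, 115737 to 2688170 in replicate 2, and 841 to 19331 over the BAT-total libraries. The groups did not overlap for any of them. With either BAT-total library left out, limma called 0 of all 8215 genes and these 7 calls were lost, at an adjusted p of 0.439 without replicate 1 and of 0.446 without replicate 2, with log2 fold changes between 6.90 and 8.12. With scaling to all reads of a library (CPM), which divides BAT-Mito by totals made mostly of mitochondrial RNA, 0 of the 7 were called. The log2 fold changes were then 0.30 to 0.99. No nuclear subunit matched a mitochondrial transcript at 90% identity over 50 bases.

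Within the complex, the mRNAs of the distal arm formed a smaller part in BAT-Mito than in BAT-total. Of the summed signal of the 36 subunits, the 11 distal genes made up 18.4% (95% Wilson interval 14.7 to 22.7%) and 17.8% (15.4 to 20.4%) in BAT-Mito and 25.5% and 24.6% in BAT-total. Averaged over libraries (n = 2 per group), distal genes took 18.1% ± 0.429 (SD) in BAT-Mito and 25.1% ± 0.664 in BAT-total. BAT-Mito minus BAT-total was thus -7.02 percentage points, which is larger than the SD of each group. This share is free of the scaling between libraries. The two-sided exact permutation p was 0.333, the smallest that 2 against 2 libraries can give, so that the design could not reach 0.05. The distal arm was singled out after the values of all 4 parts had been seen.

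The shares of the proximal arm and the Q module were higher in BAT-Mito and that of the N module was lower. The proximal arm made up 21.7% and 24.3% in BAT-Mito and 16.7% and 18.9% in BAT-total. The Q module made up 29.0% and 24.0% against 21.9% and 21.6%. The N module made up 30.9% and 34.0% against 35.9% and 34.9%. For each part the groups did not overlap, and the exact p was 0.333 each time. Both BAT-total values lay within the Wilson intervals of the N module in BAT-Mito replicate 1 (26.4 to 35.9%) and replicate 2 (30.9 to 37.1%) and of the Q module in replicate 2 (21.3 to 26.9%). For the proximal arm, 18.9% lay within the interval of replicate 1 (17.8 to 26.3%).

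**Figure D3:**
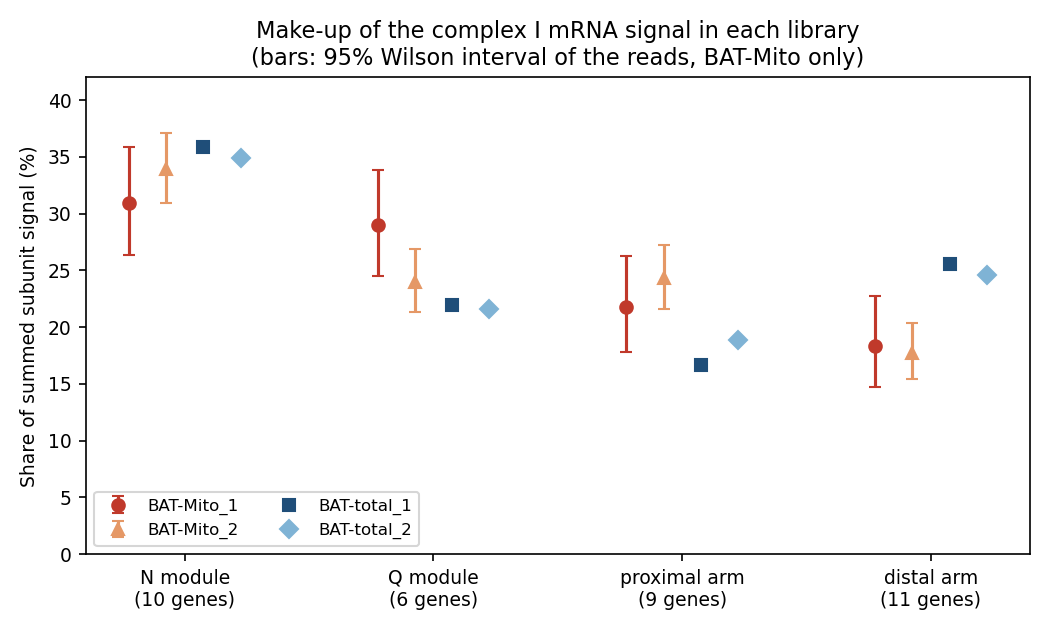
Share (%) of the summed signal of 36 subunit mRNAs that each part of complex I takes in the 4 libraries; bars are 95% Wilson intervals of the reads in BAT-Mito. The distal arm takes 18.4% and 17.8% in BAT-Mito and 25.5% and 24.6% in BAT-total.

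The distal shares of the groups also did not overlap when the highest distal genes or genes with copies were left out. Without Ndufb8 and Ndufb10, the highest distal subunits per kb, they were 14.5% and 12.8% against 19.0% and 19.0%. Among the 24 subunits without a near-identical copy and with under 10% of their exons shared with another gene, the 5 distal ones took 8.6% and 9.54% against 14.8% and 13.8%. These alternatives were chosen after seeing the data. The median mRNA length was 732 bases in the distal arm, 683 in the proximal arm, 1014.5 in the Q module and 1346 in the N module, so distal mRNAs were shorter than those of the N and Q modules.

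Distal fold changes gave the same layout gene by gene. The median log2 fold change was -1.60 for the distal arm, -0.96 for the N module, -0.75 for the Q module and -0.58 for the proximal arm. Both BAT-Mito values lay below both BAT-total values for 8 of 11 distal genes, 5 of 10 N genes, 4 of 6 Q genes and 3 of 9 proximal genes, where 52.1% of all tested genes did. Of the 7 genes lower at an unadjusted p under 0.05 with limma, 6 were distal. They made up 54.5% of the distal genes, where 14.9% of all tested genes were lower. These distal genes were Ndufb2, Ndufb5, Ndufb7, Ndufb8, Ndufb9 and Ndufb11, of which Ndufb5, Ndufb7, Ndufb9 and Ndufb11 are named after their values were seen. Their log2 fold changes were between -2.22 and -1.55 and their adjusted p between 0.136 and 0.273. Ndufb2, and Ndufa7 as the gene outside the distal arm, passed the filter only through BAT-total, the group in which they are high.

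**Figure D4:**
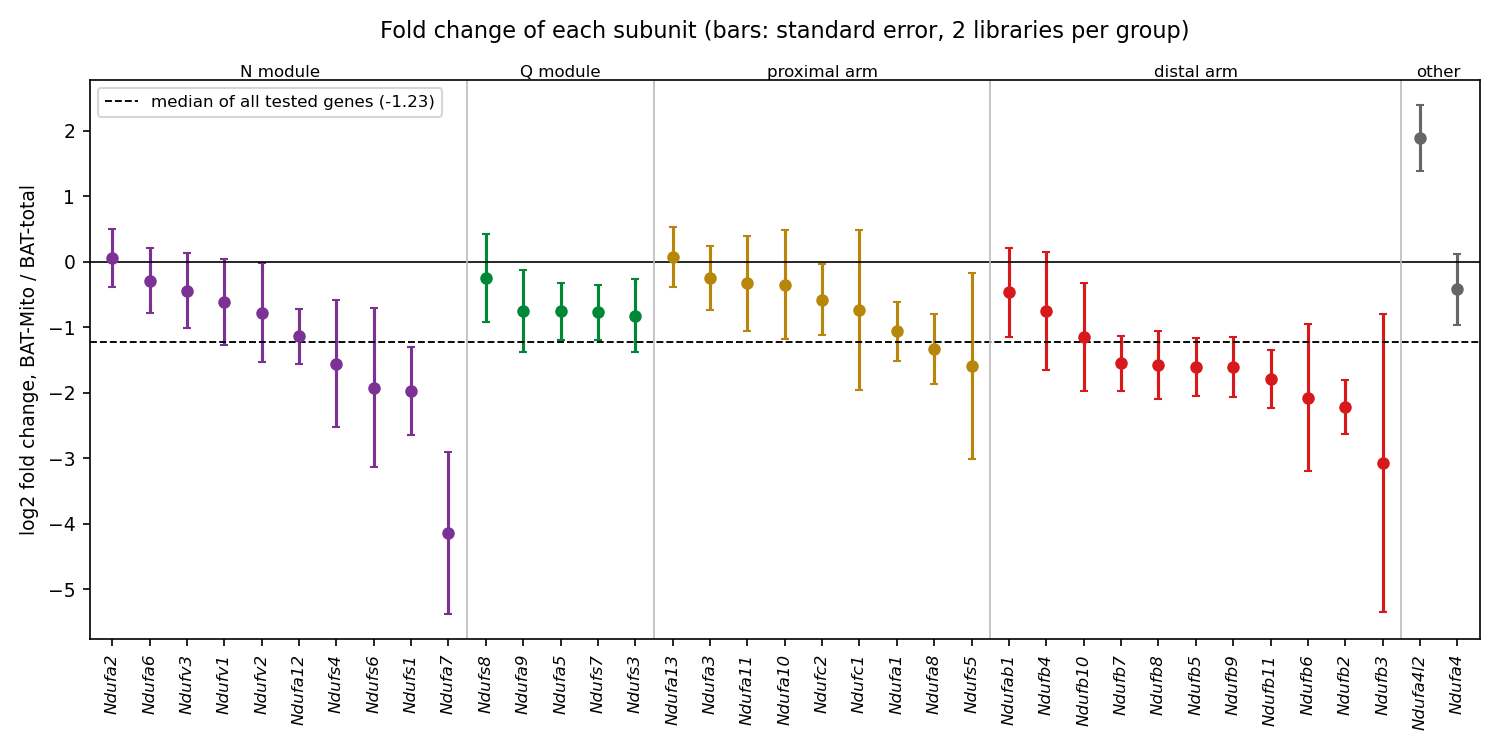
log2 fold change of BAT-Mito over BAT-total for 37 genes by part of complex I, with the standard error from limma and the median of all tested genes (-1.23) as a dashed line. Of the 11 distal genes 8 lie below that median, and the 5 Q genes plotted lie above it.

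Among distal genes, Ndufb8 had 67 and 117 normalised counts in BAT-Mito and 295 and 239 in BAT-total. The groups did not overlap, with a log2 fold change of -1.57 ± 0.52 (SE) and an adjusted p of 0.273. Ndufb2 had 8 and 7 normalised counts in BAT-Mito, which is 1 read in each library, and 38 and 39 in BAT-total. Its pooled ratio of BAT-Mito to BAT-total was 0.196, with an exact Poisson interval from 0.0237 to 0.708. Its log2 fold change of -2.22 had the lowest adjusted p of the 38 genes with limma, 0.136. With a BAT-Mito mean of 7.5, Ndufb2 passed the filter of a mean of 10 only through BAT-total, the group in which it is high. Its place below BAT-total is thus favoured by the filter. Ndufb3 had 0 and 55 normalised counts in BAT-Mito, from 0 and 8 reads, and 59 and 65 in BAT-total. Its log2 fold change of -3.07 ± 2.27 was set by the library without reads, since replicate 2 alone lay near BAT-total, and the pooled ratio was 0.487 with an interval from 0.21 to 0.959. The upstream windows of Ndufb2 and Ndufb4 printed above both held the receptor motif. The values of Ndufb4, 33 and 145 in BAT-Mito and 125 and 111 in BAT-total, overlapped between the groups. Ndufb4 has a near-identical copy, Ndufb4c.

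The core of the N module includes Ndufv1, the subunit that binds NADH and FMN, with 250 and 621 normalised counts in BAT-Mito and 671 and 544 in BAT-total. Its partner Ndufv2, an iron-sulphur protein, had 117 and 366 against 372 and 340. For both, BAT-Mito replicate 1 was low and replicate 2 lay among the BAT-total values. Ndufs1, the largest iron-sulphur subunit of the arm, had 92 and 242 against 611 and 564, so that both BAT-Mito libraries were low, with a log2 fold change of -1.97 ± 0.67 and an adjusted p of 0.277.

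Among accessory N subunits, Ndufa6, a member of the LYR family that binds the acyl carrier protein, had the highest level per kb in BAT-total. Its values of 150 and 228 in BAT-Mito and 262 and 196 in BAT-total overlapped. Ndufa7 had the lowest level per kb of the module, at 93.8 ± 20.1. It had 0 and 7 normalised counts in BAT-Mito, a single read in both libraries together, and 57 and 42 in BAT-total. Its log2 fold change of -4.14 ± 1.23 was the lowest of the 38 genes (adjusted p 0.254), and the pooled ratio was 0.0762 with an interval from 0.00193 to 0.425. With a BAT-Mito mean of 3.5, Ndufa7 passed the filter of a mean of 10 only through BAT-total, the group in which it is high. Its low fold change is thus favoured by the filter. Ndufa2, a subunit with a thioredoxin-like fold, had 92 and 124 against 106 and 99 and a log2 fold change of 0.06 ± 0.44. About 11.5% of its exon bases are shared with Tmco6.

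Core subunits of the Q module had BAT-Mito values from below to above those of BAT-total. Ndufs7, which holds the iron-sulphur cluster next to ubiquinone, had 125 and 152 against 232 and 239 without overlap. Ndufs3 had 75 and 145 against 208 and 166, also without overlap, and has a near-identical copy, Gm12251. Ndufs8, another iron-sulphur subunit, had 75 and 193 against 158 and 130, so that replicate 2 exceeded both BAT-total libraries. The log2 fold changes of these core subunits ran from -0.83 to -0.25 with adjusted p from 0.372 to 0.814.

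The accessory Q subunits had similar values. Ndufa5, the highest of them per kb, had 92 and 83 normalised counts in BAT-Mito and 167 and 132 in BAT-total. Ndufa9, which sits at the joint of both arms and is the lowest of them per kb, had 75 and 179 against 200 and 192. Neither overlapped between groups, and their log2 fold changes were -0.76 ± 0.43 and -0.75 ± 0.63.

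In the proximal arm the highest level per kb was that of Ndufa10, a subunit with the fold of a nucleoside kinase. It had 200 and 745 normalised counts in BAT-Mito, from 24 and 108 reads, and 495 and 490 in BAT-total. BAT-Mito replicate 1 was the lowest and replicate 2 the highest of the 4 libraries. Ndufc1, the lowest per kb, had 17 and 138 against 70 and 97, again with the BAT-Mito libraries at both ends. It has near-identical stretches in Gm45760 and Ube2e1, and reads aligned to several places were left out. Ndufa13, also known as GRIM-19, had 158 and 228 against 194 and 168 and a log2 fold change of 0.07 ± 0.46, and part of its exons is shared with Tssk6 on the other strand, whose reads could not be told apart without strand. Ndufs5, whose upstream sequence is printed above, had 8 and 104 against 99 and 85 and has a near-identical copy, BC002163.

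Outside complex I, Ndufa4 encodes a protein now placed in complex IV. Its values of 175 and 90 in BAT-Mito and 166 and 171 in BAT-total overlapped, and BAT-Mito replicate 1 here was the higher of the pair. Ndufa4l2, its paralogue known to be induced by hypoxia, had 25 and 41 normalised counts in BAT-Mito, from 3 and 6 reads, and 9 and 7 in BAT-total. It was the only one of the 38 genes with both BAT-Mito values above both BAT-total values. Its log2 fold change of 1.89 ± 0.50 had an adjusted p of 0.226, and the pooled ratio was 4.24 with an interval from 1.94 to 8.06. With a BAT-total mean of 8, Ndufa4l2 passed the filter of a mean of 10 only through BAT-Mito, the group in which it is high, so its place above BAT-total is favoured by the filter.

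Length of the mRNA did not order the subunits. Their mRNAs were short, with a median of 868 bases over the 38 genes against 3255 bases for tested protein-coding genes. Among other tested protein-coding genes the median log2 fold change was -0.63 for mRNAs under 600 bases, -0.66 from 600 to 1000, -0.86 from 1000 to 1500 and -1.36 above. For the 36 subunits these medians were -1.06 (9 genes), -1.33 (13 genes), -0.79 (6 genes) and -0.54 (8 genes). In the class from 600 to 1000 bases, 8 of the 13 subunits belonged to the distal arm. Spearman's rho between length and log2 fold change was 0.23 over the 36 subunits and -0.16 over 7603 other protein-coding genes, as a description across genes that share their libraries. With the genomic span in place of the mRNA length it was -0.23 over the subunits, so that its sign depended on the length used.

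**Figure D5:**
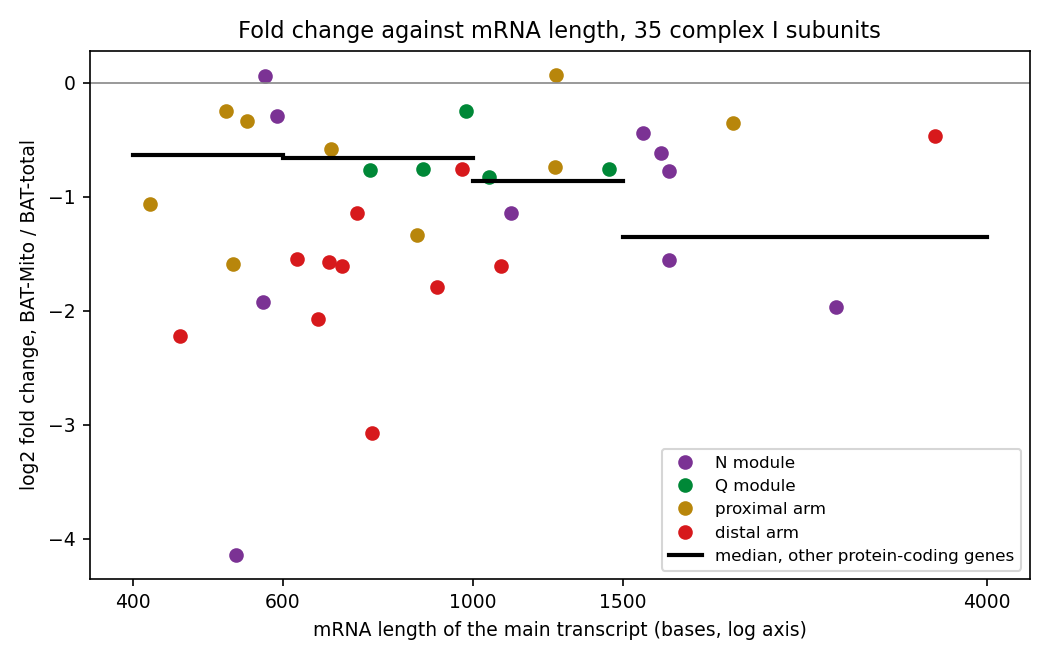
log2 fold change of 35 subunits against mRNA length (log axis), coloured by part of complex I, with the median of other tested protein-coding genes in 4 length classes as black lines. Above 1500 bases 5 of the 7 subunits plotted lie above the black line, while all 8 distal subunits between 600 and 1000 bases lie below theirs.

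Assembly factors, which build complex I without being part of it, were measured as well. Of 22 genes listed, 18 were in the table and 16 were tested. None was called higher and 1 was called lower by limma (6.25%, where 4.41% of all tested genes were), Tmem126b, which had no read in either BAT-Mito library and 30 normalised counts in both BAT-total libraries (adjusted p 0.0249). Tmem126b passed the filter only through BAT-total, the group in which it is high. The call was lost with either BAT-total library left out (adjusted p 0.439 and 0.446), with edgeR (0.0673), with DESeq2 (0.0812) and with a pseudocount of 10 (0.0916). The 3 highest in BAT-total were Foxred1 with 8 and 41 normalised counts in BAT-Mito against 74 and 70, Ecsit with 42 and 55 against 77 and 59, and Tmem70 with 42 and 55 against 49 and 60. The median log2 fold change of the 16 was -1.15. Ndufb1-ps, left out by its name, had 42 and 48 normalised counts in BAT-Mito and 38 and 42 in BAT-total, and counting it with the distal arm gave distal shares of 19.5% and 18.4% against 25.9% and 25.1%.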

How the data were processed

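RNA of 2 BAT-Mito and 2 BAT-total libraries had been sequenced by the authors as single-end reads. Per the labels, Trimmomatic 0.39, STAR 2.7.10a, featureCounts 2.0.2 and DESeq2 1.30.1 were used, with mouse build mm10, and the methods of the study name other versions of some of these tools. Fragmentation time had been adjusted for the mitochondrial samples, and reads overlapping several genes or aligned to several places had been left out. Whether reads were counted by strand is not stated. The methods describe an RNase treatment of isolated heart mitochondria and do not state one for BAT. The values deposited by the authors are a signal per gene, namely counts divided by a size factor per library and rounded, called normalised counts here. No mapping was repeated.

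In BAT-Mito the deposited signal rises in even steps. Values were divided by the step and rounded to whole reads. Whole reads times the step, rounded, gave back 100.0% of the values up to 400. BAT-total reads could not be recovered, so the reads behind its values are unknown. Coordinates, lengths and exon overlaps came from GENCODE M21 on GRCm38, whose gene coordinates equal those of 17099 listed genes (99.1%) and of all 38 genes described. The main transcript was chosen by APPRIS rank, then support level, then coding length. Matches to mitochondrial transcripts (90% identity over 50 bases) and near-identical copies (97% over 75 bases) were found with BLAST 2.17.0.

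Genes with a mean of at least 10 normalised counts were compared as log2 of the value plus 1 with limma 3.58.1 in R 4.3.3, with Benjamini-Hochberg adjustment over 8215 genes and calls at an adjusted p under 0.05. This scale understates changes of low genes and overstates decreases where 1 BAT-Mito library has no read. edgeR 4.0.16 and DESeq2 1.42.0 were run as alternatives on recovered reads, with rounded BAT-total values taken as reads. Exact permutation tests were two-sided. Pooled ratios set the reads of both BAT-Mito libraries, with a 95% exact Poisson interval, against the BAT-total mean, and cover counting error in BAT-Mito only. The scripts were tested on simulated data.

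The genes and lists were chosen with earlier results of these data known. Named are the core subunits, the accessory subunits with the highest and lowest level per kb of each module, the 3 highest and 3 lowest fold changes, any called gene, Ndufa4, Ndufa4l2 and Ndufab1. The values of 1 item are not reported here, although sums, counts and medians include it. Alternatives covered the pseudocount, the filter, 4 scalings, the replicate number as a block, both count tools, the gene set and leaving out each library. The replicate numbers of both groups gave a correlation of deviations of 0.11 for the single contrast that 2 pairs allow, and no source says that a number marks a shared animal, so the samples were not paired.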

Additional observations from a re-analysis of the deposited data

How the results depend on the processing

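No called gene changed direction, since 0 of 38 genes passed the test with limma as reported. The number called lower was 4 without a filter (20.8% of all genes were then called lower), 1 with DESeq2 and 38 with scaling to all reads of a library (CPM, where 96.9% of all genes were called lower), and 0 under the other settings that kept all libraries, the mean of at least 50 among them, which left 34 of the genes. Scaling to all reads divides BAT-Mito by totals made mostly of mitochondrial RNA, and it gave a median log2 fold change of -7.47 and a distance of -0.32 from all tested genes, whose own median was -7.15. The median of the 38 genes was -0.12 with median ratios over nuclear genes and -0.17 with CPM over nuclear genes, while the distance from all genes stayed at 0.50 in both. With one library left out in turn, the number called higher ran from 0 to 1, the number called lower from 0 to 23, the median from -1.30 to -0.30 and the distance from all tested genes from -0.24 to 0.62. The highest count of lower calls, 23, came without BAT-Mito replicate 2 (47% of all tested genes were then called lower) and 10 came without replicate 1 (41.1%), where the lone BAT-Mito library was assumed to vary like BAT-total. With the replicate number as a block, the median of the 38 genes was -0.77 and limma called 0 of all 8215 genes, so the calls of the 7 mt-Nd mRNAs and of Tmem126b were lost under the block too (adjusted p 0.158). It also called 0 of all 8215 genes with either BAT-total library left out, so these fits say nothing about the stability of the 38 genes. The share of nuclear signal differed by -0.02 percentage points between BAT-Mito and BAT-total, and with one library left out this difference ran from -0.38 to 0.34. With mitochondrially encoded genes in the denominator, the difference was -0.43 percentage points. The distal minus other median of log2 fold changes was -0.85, between -1.02 and -0.67 under the settings that kept all libraries, and from -1.38 to -0.56 with one library left out. The difference in distal share, -7.02 percentage points, was -5.22 without copies and overlaps, -5.32 without Ndufb8 and Ndufb10, -7.93 without Ndufab1, and from -7.49 to -6.55 with one library left out. The cause of these changes was not tested. The depth of BAT-Mito, with 1 read worth 7 to 8 normalised counts, limits every subunit with few reads.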
